A study of Homo sapiens with 6 samples.

Results

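Ligands and receptors of the growth factor and cytokine families were described in Huh7, a long-established line from a human liver carcinoma, with and without GABA (gamma-aminobutyric acid). The genes were chosen by name from the deposited gene list. They comprise the FGF, IGF, TGF-beta, BMP, GDF, WNT, Frizzled, LRP, Notch, Jagged, Eph, ephrin, PDGF, VEGF, semaphorin, plexin, neuropilin, ERBB, TNF, interleukin and CXCL names and 7 single genes, without IL1B, CXCL2 and CXCL8. The rule found 83 protein-coding members among 5187 listed genes. By role, 39 were ligands and 31 cell-surface receptors. A further 7 were secreted modulators or related proteins, and 6 shared only the name stem. The list used here does not hold EGFR, MET, STC2, NOTCH2, JAG1, IGF1R or IGF2.

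Total RNA was sequenced from 3 control cultures and 3 cultures treated with GABA for 24 h, all of the same line grown in serum-containing medium. The labels call the libraries biological replicates without saying whether the cultures were handled separately, so p-values measure the spread between these 6 libraries. The dose of GABA is not given in the sources used here. None of 11 hepatocyte and liver cancer markers is listed, so the listed genes do not check the identity of the line. Control cells were untreated, and no vehicle is named.

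Growth factors and cytokines are secreted or membrane-bound proteins that one cell releases and another reads through a receptor at its surface. Receptor tyrosine kinases, such as those for FGF and PDGF, phosphorylate their own tails after binding, whereas cytokine receptors borrow kinases of the JAK family. TGF-beta and BMP receptors signal through SMAD proteins, Frizzled receptors take up WNT signals, and Notch is cut after contact with a ligand on a neighbouring cell. Liver cancer cells both make and answer many of these signals.

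The files do not hold all genes, and the listed ones follow the comparison. Across tested genes, file order and p-value had a Spearman correlation of 0.93, and the smallest log2 fold change in either direction was 0.12. Of the 4981 genes that passed the filter on low counts, 98.7% were called at an adjusted p of 0.05 (edgeR, quasi-likelihood F test, Benjamini-Hochberg), 47.6% higher and 51.2% lower with GABA. The groups did not overlap in 92.5% of tested genes. That a member was called therefore says little, and what follows describes directions, sizes and levels. Directions and sizes carry the same limit, since the smallest changes are not listed. Counts on the listed genes summed to between 7702666 and 8392945 per library, and CPM here is scaled by TMM to that total. The scaling sets the zero point of the log2 fold changes. Their median over all tested genes was -0.18 with TMM, -0.13 with DESeq2 size factors and -0.16 with library totals. Small log2 fold changes are therefore the least certain. Members held 1.38% to 1.5% of counts. Control replicate 3 lay farther from its group than the other libraries, with a median absolute log2 deviation of 0.127 against 0.0474 to 0.0952. Mitochondrially encoded genes took 7.74%, 7.14% and 9.11% of counts in control and 6.66%, 7.04% and 6.74% in GABA libraries. This share was thus higher in every control library than in any GABA library, and its part in the results below was not tested.

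Promoter sequences are shown for 4 members that are textbook targets of NF-kB, the transcription factor of inflammatory signalling. They were chosen because their log2 fold changes differed in sign, that of IL6 with overlapping groups. The sequences are RefSeq windows on build GRCh38.p14, from 250 bases before to 50 bases after the gene start, printed 5′ to 3′ on the gene's strand. TNFAIP3 lies at chr6:137867009-137867308 on the plus strand, CXCL3 at chr4:74038640-74038939 on the minus strand, CXCL1 at chr4:73869143-73869442 on the plus strand and IL6 at chr7:22726950-22727249 on the plus strand. Capitals mark matches, on either strand, to an NF-kB type motif spelled GGG, any 2 bases, TTTCC.
TNFAIP3: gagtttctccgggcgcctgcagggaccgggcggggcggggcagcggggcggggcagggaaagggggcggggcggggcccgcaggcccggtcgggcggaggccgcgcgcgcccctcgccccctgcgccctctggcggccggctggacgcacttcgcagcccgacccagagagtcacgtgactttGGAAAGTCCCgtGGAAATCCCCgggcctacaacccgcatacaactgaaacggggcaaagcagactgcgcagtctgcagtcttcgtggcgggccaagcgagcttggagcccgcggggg
CXCL3: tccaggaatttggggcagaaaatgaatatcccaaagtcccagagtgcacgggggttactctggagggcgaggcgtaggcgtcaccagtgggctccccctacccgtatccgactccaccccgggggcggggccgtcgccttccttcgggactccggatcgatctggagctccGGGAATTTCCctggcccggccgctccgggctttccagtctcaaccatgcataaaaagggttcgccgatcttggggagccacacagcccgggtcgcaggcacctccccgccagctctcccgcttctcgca
CXCL1: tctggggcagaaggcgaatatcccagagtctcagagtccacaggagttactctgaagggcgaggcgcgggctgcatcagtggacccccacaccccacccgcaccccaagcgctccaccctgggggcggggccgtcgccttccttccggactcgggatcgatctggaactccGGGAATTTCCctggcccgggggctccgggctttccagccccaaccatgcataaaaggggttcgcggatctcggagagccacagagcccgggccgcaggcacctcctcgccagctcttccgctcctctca
IL6: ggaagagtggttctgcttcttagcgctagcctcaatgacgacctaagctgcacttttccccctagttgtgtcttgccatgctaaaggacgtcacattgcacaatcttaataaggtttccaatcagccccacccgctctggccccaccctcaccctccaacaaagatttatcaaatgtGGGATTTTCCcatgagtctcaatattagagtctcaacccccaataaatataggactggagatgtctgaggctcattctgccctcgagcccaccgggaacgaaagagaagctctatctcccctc
The window of TNFAIP3 held 2 matches and the others 1 each. In CXCL1 and CXCL3 the match was the same 10 letters, starting 79 bases before the gene start, and the whole windows were 82.5% identical after alignment. The motif occurred in 671 of 35116 RefSeq windows (1.91%) and in 6 of the 81 windows found for 64 members (7.41%), the other genes being BMPR1B and IL4R. An AP-1 type motif, TGANTCA, occurred in 7.41% of the member windows and in 7.71% of all windows. Its genes were IL11, IL23A, IL1A, FGF1 and IL6R. The motifs were chosen after the values had been seen, and a match describes letters only.

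Receptors were nearly all lower with GABA, and ligands were divided. Of the 30 receptors tested 29 were lower with GABA (96.7%) and 1, EPHA2, was higher (3.33%). Of the 37 ligands tested 19 were higher (51.4%) and 18 lower (48.6%). The median log2 fold change was -0.51 for receptors and 0.18 for ligands, against -0.18 for all tested genes. With ligands divided 19 to 18, their median is the smallest rise among them, that of WNT5B. The next lower ligand value was -0.25 (SEMA4C), so the ligand median shows no lean to either side. Over all members 27 rose and 52 fell, with a median of -0.33. Without control replicate 3, the library that stood apart, 27 members rose and 50 fell, and receptors were 29 lower and 1 higher. Sizes were moderate: the median of log2 fold changes without their sign was 0.55, against 0.40 for all tested genes, and 10 of 79 members reached 1 (12.7%, against 10.3% of all tested genes). All members are protein-coding, and over tested protein-coding genes the same median was 0.37 and the same share 6.32%. Size differed with level. Of 39 members with a mean of 50 CPM or more 1 reached 1 (2.56%, median 0.33), and of 40 tested below that 9 did (22.5%, median 0.73). The median level was 49.7 CPM for members and 93.1 for protein-coding genes. Sizes over all genes were not split by level, so the comparison does not show members to be more responsive. Roles were assigned after the values had been seen, and no test of the lists was made.

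**Figure D1:**
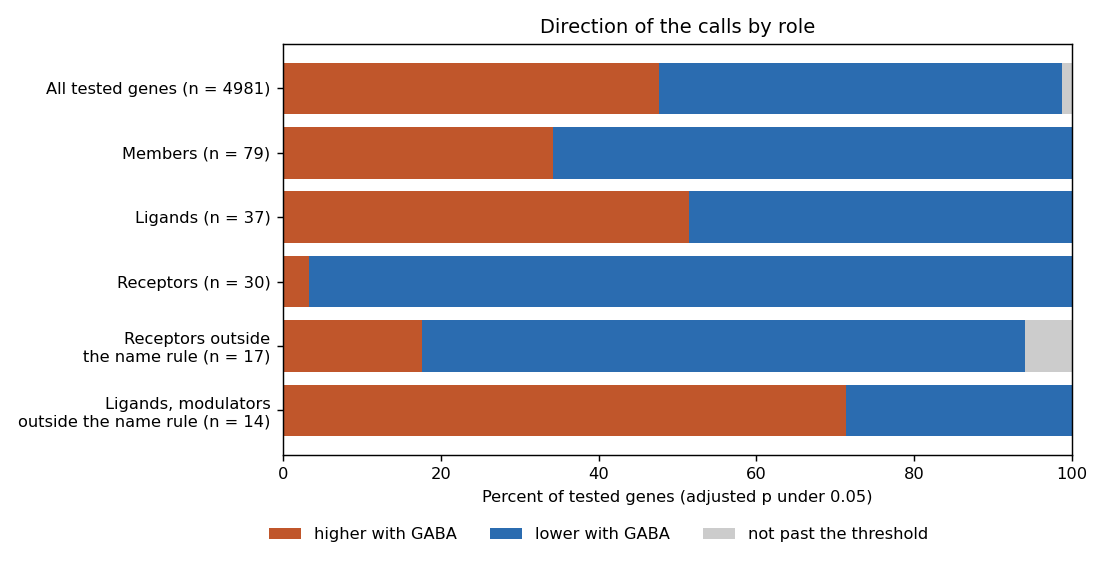
Percent of tested genes that were higher, lower or not past the threshold (adjusted p of 0.05, edgeR) for all tested genes, the members, their ligands and receptors, and other ligands and receptors. The bar of the receptors is nearly all lower (96.7%), whereas ligands divide into 51.4% higher and 48.6% lower.

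The fall among receptors was seen at high and low levels. Of 14 receptors with a mean of 50 CPM or more 13 fell, and of 16 tested below that 16 fell. The size differed, with a median log2 fold change of -0.33 at 50 CPM or more and -0.70 below. Receptor transcripts were long, with a median exon length of 6312 bases against 4149 for ligands. Among the 2251 tested protein-coding genes with exon lengths between the receptors' quartiles, 55.5% fell and 43.2% rose, against 51.2% and 47.6% of all tested genes. In 25 of the 30 receptors (83.3%) the groups did not overlap, a share below the 92.5% of all tested genes. The number of receptors called lower was 26 with DESeq2 and 22 to 29 with 1 library left out. In bulk RNA, fewer cells carrying a transcript and less transcript per cell cannot be told apart.

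**Figure D2:**
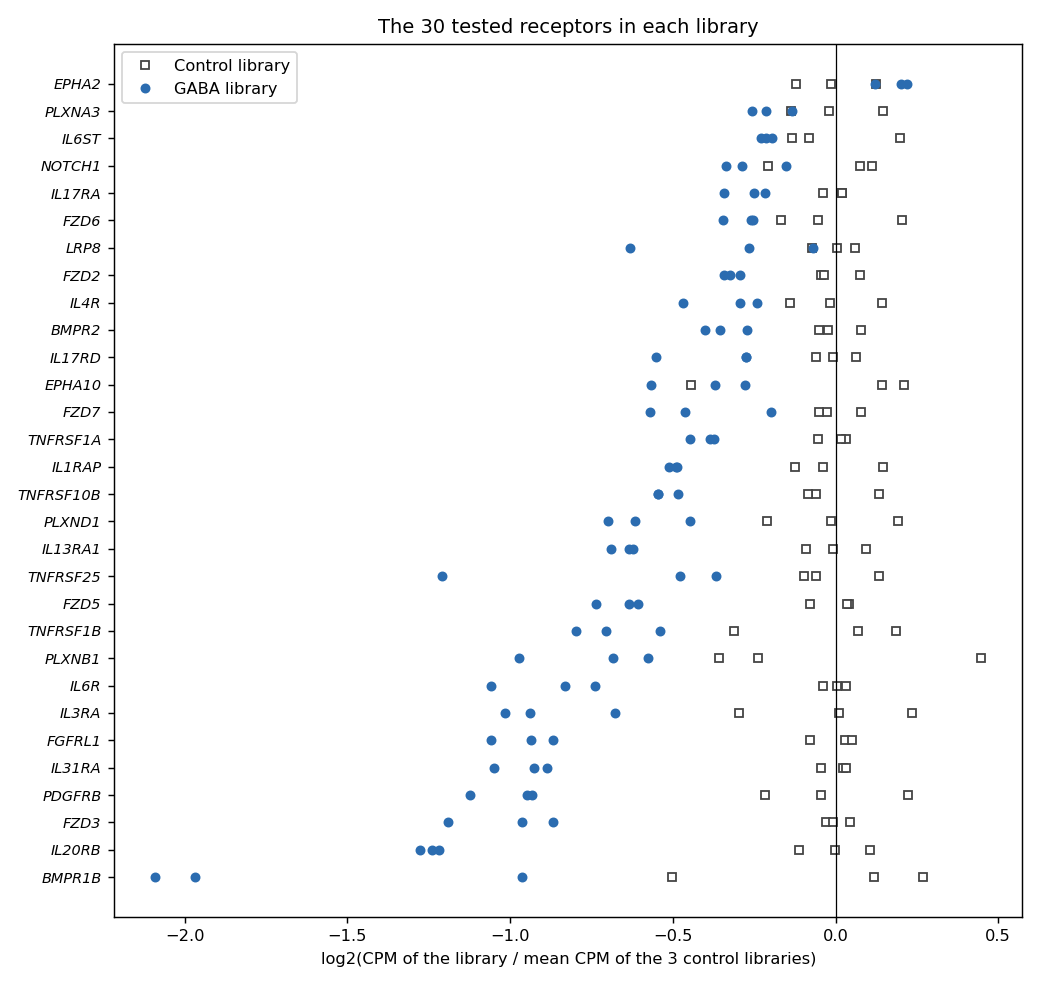
Each row is 1 of the 30 tested receptors, and the horizontal axis gives the log2 ratio of CPM in a library to the mean of the control libraries. Squares are control libraries and filled circles GABA libraries. Circles lie left of the squares in 25 rows, and overlap is seen for EPHA2, EPHA10, LRP8, NOTCH1 and PLXNA3.

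Receptors outside the name rule were also mostly lower. From a list of other ligands and receptors, 31 of 125 genes were tested. Of its 17 receptors 13 fell, 3 rose (NGFR, CXCR4 and FAS) and 1 did not pass, ACVR2B, an activin receptor. Of its 14 ligands and modulators 10 rose and 4 fell, where 47.6% of all tested genes rose and 51.2% fell. The smallest p-values belonged to INHBA, the activin A subunit, at 34.6 and 89.2 CPM (log2 fold change 1.36 ± 0.09, SE), LEPR, the leptin receptor, at 17.1 and 3.25 CPM (-2.39 ± 0.20), and RGMB, of the repulsive guidance family, at 274 and 438 CPM (0.68 ± 0.06). RGMB binds neogenin and also acts as a BMP co-receptor. It was counted with the ligands and modulators, and as a receptor it would be the fourth that rose.

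Levels of different genes were compared per kilobase of exon. GDF15, a stress-induced ligand of the TGF-beta superfamily, was the most abundant member, at 1620 CPM per kilobase in control and 2032 in GABA libraries. In control cells it was followed by FZD2 (221), EPHA2 (219), TNFRSF10B (217), FGF2 (197) and TNFRSF1A (172). The values of FZD2, EPHA2 and TNFRSF10B lay closer to each other than their spread between libraries. The median member stood at 7.78 CPM per kilobase in control and 8.09 in GABA libraries. With GABA, EPHA2 (248) stood above FZD2 (177), TNFRSF10B (151) and FGF2 (121).

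**Figure D3:**
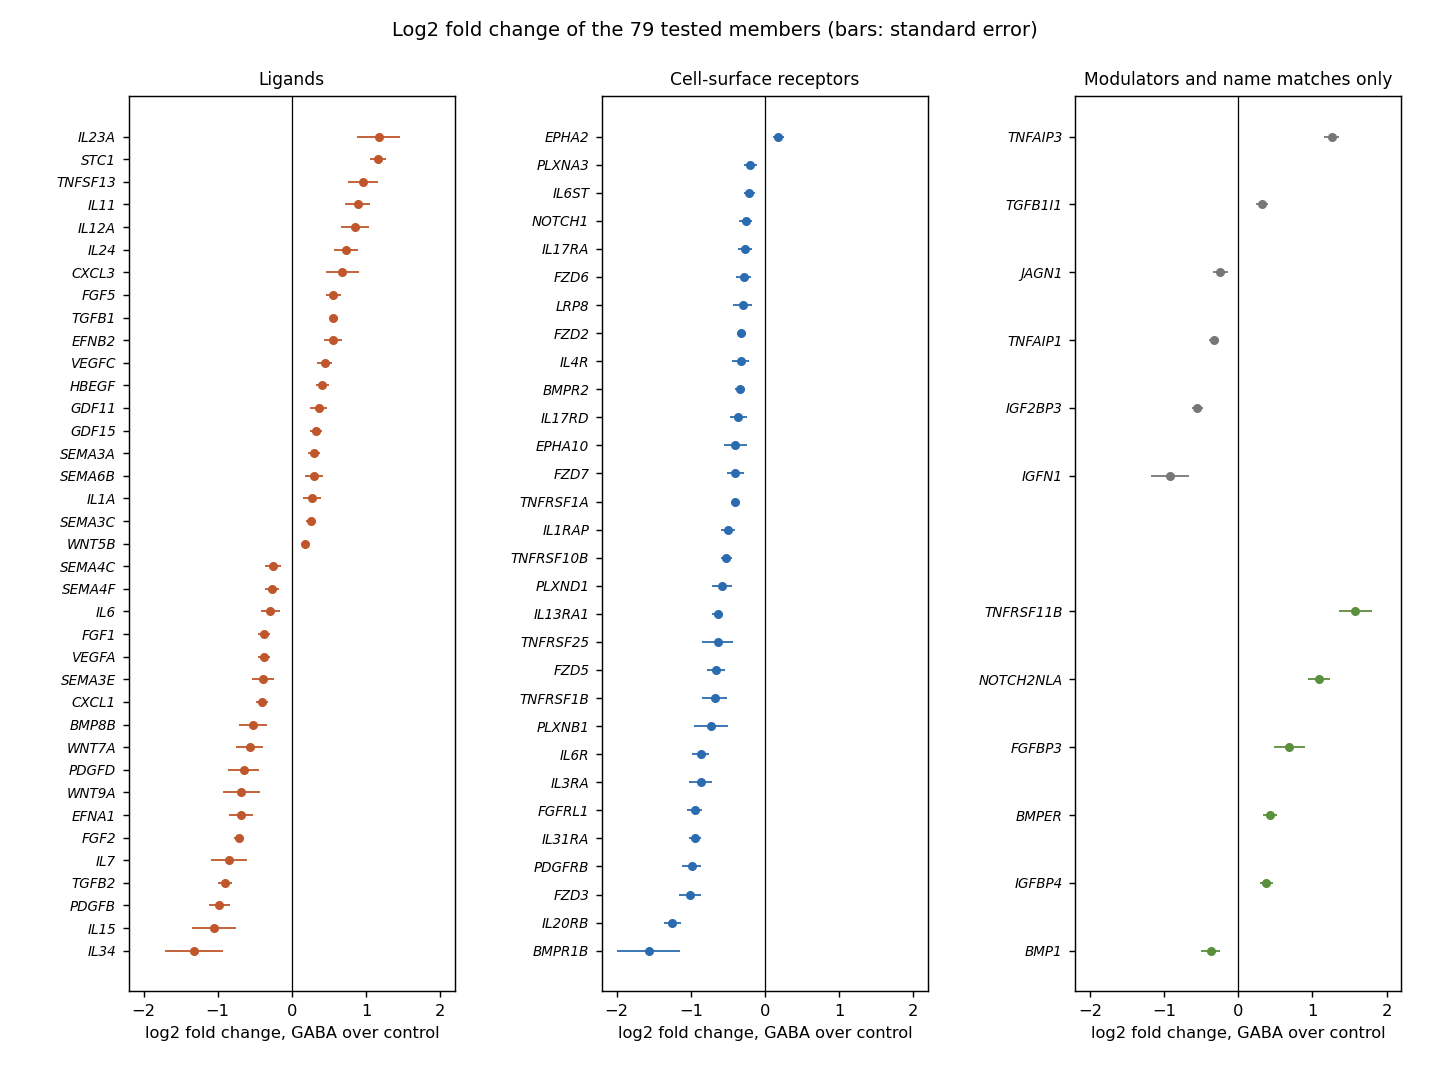
Log2 fold change of GABA over control for each tested member, with the standard error from the edgeR fit as bars, divided into ligands, receptors, and modulators with name matches. Values of receptors run from -1.57 (BMPR1B) to 0.18 (EPHA2), and those of ligands from -1.32 (IL34) to 1.17 (IL23A).

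The FGF family, which drives growth through receptor tyrosine kinases with heparan sulfate as cofactor, showed lower FGF2 and higher FGF5. FGF2, basic fibroblast growth factor, had 1283, 1275 and 1452 CPM in the control libraries and 842, 819 and 792 in the GABA libraries. All GABA libraries were well below all control libraries (1336 ± 99.9 against 818 ± 25.2, SD, n = 3). FGF2 fell by 0.71 on the log2 scale (SE 0.07, edgeR adjusted p = 9.1e-06), and FGF1 had -0.37 ± 0.08. FGF5, a ligand known for ending hair growth, had 47.2, 40.8 and 43.1 CPM in control and 61.8, 61.4 and 70.7 in GABA libraries. Its groups were also separate, in the other direction (log2 fold change 0.56 ± 0.10, edgeR adjusted p = 6.7e-04). FGFBP3, a carrier that releases FGFs from matrix, rose by 0.69 ± 0.21 at 4.41 and 7.13 CPM. FGFRL1, an FGF receptor without a kinase domain, had 64.6, 65.5 and 59.9 CPM in control and 33.1, 30.4 and 34.7 in GABA libraries. Its log2 fold change was -0.95 ± 0.10 (edgeR adjusted p = 2.1e-05). FGFR3 was under the filter, with 10, 15 and 11 counts in control and 7, 2 and 1 in GABA libraries.

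In the PDGF and VEGF family, a ligand and its receptor fell together. PDGFB, the B chain of platelet-derived growth factor, had 36.2, 48.8 and 39.6 CPM in control and 23.3, 19.9 and 19.8 in GABA libraries. PDGFRB, the receptor for that chain, had 39.1, 47.0 and 34.7 in control and 18.5, 20.9 and 21.1 in GABA libraries. Both genes were lower in every GABA library, with control replicate 2 the highest for each. The log2 fold changes were -0.98 ± 0.14 for PDGFB (edgeR adjusted p = 1.3e-04) and -0.99 ± 0.13 for PDGFRB (adjusted p = 1.1e-04). PDGFD, another ligand of the same receptor, had -0.65 ± 0.21 at 9.12 and 5.80 CPM, and its call was lost without GABA replicate 2 (-0.48, adjusted p = 0.0574). PDGFRB is also a marker of fibroblasts and stellate cells. Of 8 such markers COL3A1, a fibrillar collagen, was the other one listed, and it moved the other way, from 20 ± 2 to 31.6 ± 3.99 CPM (SD, n = 3), with a log2 fold change of 0.66 ± 0.13 (SE). The pair summed to 52.4 to 68.4 CPM in control and 48.2 to 54.3 in GABA libraries. The part of such cells in the result was not tested. None of 10 immune and 6 endothelial markers is listed. Of 5 neuron markers 3 are listed, MAP2, SYP and SNAP25, with sums of 31.1 to 36.9 CPM in control and 27.6 to 31.5 in GABA libraries. The files do not hold all genes, so an unlisted marker is not shown to be absent.

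VEGFA, the main angiogenic factor, had 218, 253 and 205 CPM in control and 177, 173 and 167 in GABA libraries. VEGFC, which directs lymphatic vessel growth, moved the other way, with 32.3, 34.2 and 35.6 in control and 46.6, 43.2 and 49.1 in GABA libraries. Neither gene's groups overlapped. The log2 fold changes were -0.38 ± 0.08 (edgeR adjusted p = 0.0016) and 0.44 ± 0.10 (adjusted p = 0.0026).

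TGF-beta ligands also parted. TGFB1, the widely expressed isoform, had 188, 186 and 184 CPM in control and 272, 282 and 269 in GABA libraries. TGFB2, an isoform held latent like the first, had 259, 234 and 293 in control and 128, 140 and 154 in GABA libraries. The GABA libraries were apart from the controls for both genes, in opposite directions. Per kilobase of exon, TGFB1 stood at 57.5 and 84.7 and TGFB2 at 50.9 and 27.3 CPM in control and GABA libraries. The log2 fold changes were 0.56 ± 0.06 for TGFB1 (edgeR adjusted p = 3.1e-05) and -0.90 ± 0.09 for TGFB2 (adjusted p = 1.9e-05). The exons of TGFB2 overlap another gene over 26.6% of their length, mainly the transcript TGFB2-OT1, so part of its counts is uncertain.

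GDF15 had 3056, 3700 and 3389 CPM in control and 4331, 4464 and 3928 in GABA libraries, with no overlap (0.33 ± 0.08, edgeR adjusted p = 0.0032). GDF11, a patterning factor, rose by 0.36 ± 0.11. BMP8B had -0.52 ± 0.19 at 11.6 and 8.04 CPM, and its call was lost with DESeq2 (adjusted p = 0.0507) and without GABA replicate 1 or 2 or control replicate 1 (adjusted p 0.0658 to 0.0833). It shares 12.7% of its 50-base words with other genes, chiefly BMP8A. BMPR2, the type II BMP receptor, had 252, 247 and 270 CPM in control and 200, 194 and 212 in GABA libraries. It fell by 0.34 on the log2 scale (SE 0.07, edgeR adjusted p = 0.0011). BMPR1B, a type I receptor, had -1.57 ± 0.42 at 2.01 and 0.673 CPM, near the level of 3 counts in a library (0.354 to 0.388 CPM). BMPER, an extracellular BMP modulator, rose by 0.43 ± 0.09. BMP1, a procollagen protease despite its name, had -0.37 ± 0.13, and its groups overlapped. Its call was lost without GABA replicate 2 (adjusted p = 0.0619) or control replicate 2 (adjusted p = 0.0600). TGFB1I1, an adhesion adaptor, rose by 0.32 ± 0.08.

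From a list of 38 other TGF-beta and BMP pathway genes, 17 were tested. Of these 12 were lower (70.6%, against 51.2% of all tested genes) and 5 higher. The smallest p-values were those of ID3 (-1.02 ± 0.12) and ID1 (-0.79 ± 0.09), BMP-induced inhibitors of differentiation, and TGIF1 (-0.50 ± 0.07), a SMAD co-repressor.

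**Figure D4:**
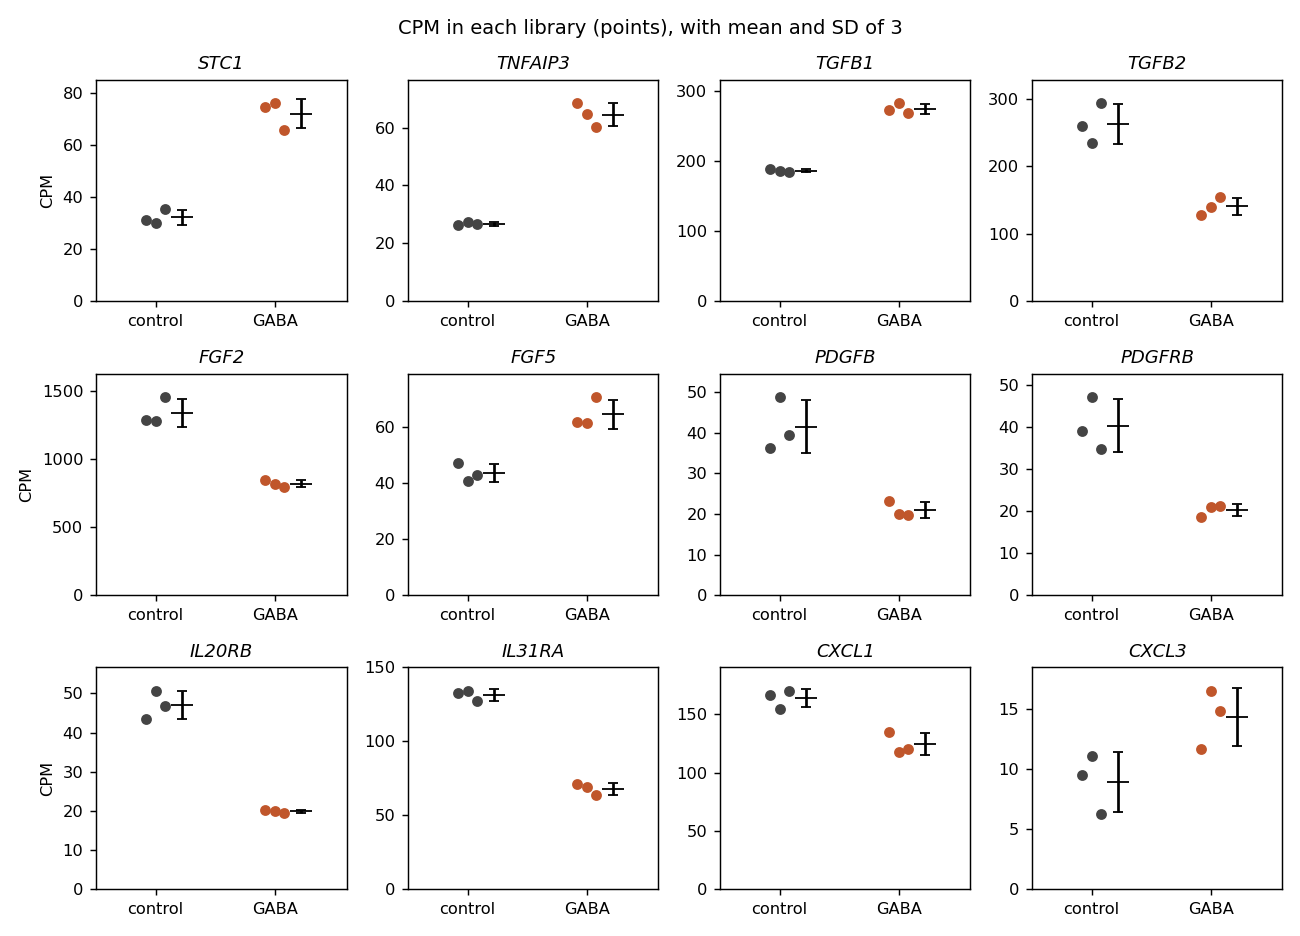
CPM in each of 3 control and 3 GABA libraries for 12 members, with the mean and SD beside the points. The vertical axes start at 0 and differ between panels. Groups do not overlap in any panel, with STC1, TNFAIP3, TGFB1, FGF5 and CXCL3 higher and the other genes lower in GABA libraries. Over all tested genes the groups did not overlap in 92.5%.

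All 5 listed Frizzled receptors fell. FZD2 had 492, 453 and 456 CPM in control and 368, 381 and 373 in GABA libraries (-0.32 ± 0.06, edgeR adjusted p = 0.0010). FZD3 had 20.3, 19.3 and 19.6 in control and 10.8, 10.1 and 8.62 in GABA libraries (-1.01 ± 0.15, edgeR adjusted p = 1.9e-04). FZD5 had 25.7, 25.6 and 23.7 in control and 16.1, 16.4 and 15 in GABA libraries (-0.66 ± 0.12, edgeR adjusted p = 8.3e-04). No groups of these genes overlapped, and FZD3 had the largest change of the family. FZD7 had -0.40 ± 0.11 and FZD6 -0.29 ± 0.10, the latter lost without GABA replicate 1 (adjusted p = 0.0672). Without control replicate 3 FZD6 had -0.18 (adjusted p = 0.0313). LRP8, a receptor for reelin and apolipoprotein E, had -0.30 ± 0.13, and its groups overlapped. Its call was lost in 7 of 11 alternatives, with -0.16 and an adjusted p of 0.203 without GABA replicate 2.

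The WNT ligands did not move one way. WNT5B, a noncanonical WNT, stood at 84.3 CPM per kilobase in control libraries, against 2.88 for WNT7A and 1.65 for WNT9A. It had 353, 383 and 353 CPM in control and 401, 421 and 415 in GABA libraries. WNT5B rose by 0.18 ± 0.06, a small change whose call was lost without GABA replicate 2 or 3 or control replicate 1 (adjusted p 0.0541 to 0.0689). WNT7A had -0.57 ± 0.18 and WNT9A -0.68 ± 0.25, both under 15 CPM. The call of WNT9A was lost with DESeq2 (adjusted p = 0.0523) and without GABA replicate 2 (-0.45, adjusted p = 0.0883). From a list of 49 other WNT pathway genes, 13 were tested. Of these 8 were higher (61.5%, against 47.6% of all tested genes) and 5 lower. The secreted WNT inhibitors SFRP1 (299 to 543 CPM, 0.86 ± 0.07) and DKK1 (1667 to 2450 CPM, 0.56 ± 0.06) rose, as did TNIK (0.77 ± 0.08), a kinase that acts with TCF factors.

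NOTCH1, the receptor, had 161, 157 and 129 CPM in control and 122, 118 and 134 in GABA libraries. Control replicate 3 lay within the GABA range. Its log2 fold change was -0.26 ± 0.09 (edgeR adjusted p = 0.0199), and the call was lost without GABA replicate 1 or 2 or control replicate 1 (adjusted p 0.0700 to 0.0839). NOTCH2NLA, a human-specific partial copy of NOTCH2, had 9.83, 8.29 and 10.9 in control and 20.9, 21.7 and 19.5 in GABA libraries (1.09 ± 0.15, edgeR adjusted p = 1.4e-04). Of its 50-base words 73.7% also occur in other genes, mainly NBPF19 and NOTCH2, so its counts are uncertain. JAGN1, a protein of the endoplasmic reticulum that is no Notch ligand, had 55.4, 52.7 and 63.8 in control and 50.4, 45.3 and 50.2 in GABA libraries. Its value of -0.24 ± 0.10 lost its call in 8 of 11 alternatives (adjusted p up to 0.156), and was -0.15 without control replicate 3 (adjusted p = 0.117). From a list of 41 other Notch pathway genes, 13 were tested. Of these 5 rose and 8 fell (61.5%, against 51.2% of all tested genes). Those with the smallest p were ADAM17, a sheddase that can cut Notch (-0.31 ± 0.07), RFNG, a Fringe glycosyltransferase (0.30 ± 0.07), and DNER, a Notch-binding membrane protein (0.27 ± 0.06).

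Ephrins are membrane-bound ligands of Eph receptor kinases. EPHA2, the Eph receptor best known in carcinoma, had 901, 991 and 836 CPM in control and 1059, 1045 and 988 in GABA libraries. GABA replicate 3 lay just below control replicate 2. Its log2 fold change of 0.18 ± 0.07 (edgeR adjusted p = 0.0255) was lost without GABA replicate 1 or 2 or control replicate 1 (adjusted p 0.0696 to 0.0952). EFNA1, an EPHA2 ligand, had 20.8, 20.8 and 17.6 in control and 13.9, 12.7 and 10.1 in GABA libraries (-0.69 ± 0.16, edgeR adjusted p = 0.0025). The receptor and this ligand thus had opposite signs. EFNB2, a ligand of EphB receptors, had 25.5, 24.7 and 21.7 in control and 36.0, 31.3 and 37.9 in GABA libraries (0.55 ± 0.12, edgeR adjusted p = 0.0021), with 26.2% of its exon length in another gene. EPHA10, an Eph receptor without kinase activity, had -0.40 ± 0.16, overlapping groups and a call lost without GABA replicate 2 or 3 or control replicate 1 or 2 (adjusted p 0.0614 to 0.116). EFNB3 was under the filter, with 0, 1 and 1 counts in control and 4, 6 and 8 in GABA libraries.

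Semaphorins are guidance cues read by plexins. All 3 listed plexins fell, and the listed semaphorins were divided. PLXND1, a receptor for SEMA3E, had 43.9, 50.6 and 38.3 CPM in control and 32.5, 27.3 and 28.9 in GABA libraries (-0.58 ± 0.13, edgeR adjusted p = 0.0018). SEMA3E itself had -0.39 ± 0.15 at 22.3 and 17.0 CPM, lost with DESeq2 (adjusted p = 0.0549) and without GABA replicate 2 or control replicate 1 (adjusted p = 0.103 and 0.0616). PLXNB1 had -0.73 ± 0.23. Control replicate 2 stood at 18.0 CPM against 10.3 and 11.2 in the other controls, and without it the value was -0.44 (adjusted p = 0.0571). PLXNA3 had -0.20 ± 0.09, with the largest adjusted p of any member (0.0486), and passed only in the reported fit, without a filter and without control replicate 3. Without control replicate 2 it had -0.13 (adjusted p = 0.192). The secreted SEMA3A had 216, 209 and 256 in control and 278, 285 and 279 in GABA libraries, and SEMA3C had 509, 494 and 586 and then 651, 639 and 609. Both were higher in every GABA library, by 0.30 ± 0.08 (edgeR adjusted p = 0.0048) and 0.26 ± 0.07 (adjusted p = 0.0068), with control replicate 3 the nearest to the GABA range. SEMA6B had 0.30 ± 0.12, which dropped to 0.14 without control replicate 3 (adjusted p = 0.0577) and was also lost without each of the 3 GABA libraries in turn (adjusted p 0.0687 to 0.0854). The membrane-bound SEMA4C (-0.25 ± 0.11) and SEMA4F (-0.27 ± 0.09) were lower. The call of SEMA4C was lost in 9 of 11 alternatives (adjusted p up to 0.133), and that of SEMA4F with DESeq2 and without GABA replicate 3 (adjusted p = 0.0528 and 0.0606). SEMA3G was under the filter, with 0 counts in each control library and 5, 0 and 7 in GABA libraries. From a list of 37 genes of guidance signalling, 11 were tested. Of these 3 rose and 8 fell (72.7%, against 51.2% of all tested genes). The smallest p-values were those of RRAS, a small GTPase (-0.66 ± 0.10), NCK2, an adaptor (-0.60 ± 0.10), and DPYSL5, a collapsin response mediator (1.46 ± 0.24).

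Among members with a TNF name, the 4 listed signalling receptors fell and the secreted decoy rose. Receptors of this family outside the name rule were divided. FAS (0.35 ± 0.11) and NGFR (1.43 ± 0.32, at 2.35 and 6.37 CPM) rose, and CD40 (-0.81 ± 0.11) fell. TNFRSF10B, the death receptor for TRAIL, had 1072, 1226 and 1053 CPM in control and 799, 765 and 765 in GABA libraries (-0.52 ± 0.07, edgeR adjusted p = 8.4e-05). TNFRSF1A, the main TNF receptor, had 664, 705 and 697 in control and 527, 532 and 505 in GABA libraries (-0.40 ± 0.06, edgeR adjusted p = 1.9e-04). Neither gene's groups overlapped, and their levels with GABA were 151 and 130 CPM per kilobase. TNFRSF1B had -0.68 ± 0.17 at 16.0 and 10.0 CPM. TNFRSF25 had -0.64 ± 0.21 at 12.5 and 8.02 CPM, lost without GABA replicate 1 (-0.42, adjusted p = 0.0618). TNFRSF11B, osteoprotegerin, a soluble decoy, had 2.18, 2.33 and 2.54 CPM in control and 6.94, 7.24 and 6.96 in GABA libraries. It had the largest rise of the members (1.58 ± 0.22, edgeR adjusted p = 1.6e-04), at a low level. TNFSF13, the ligand APRIL, rose from 5.12 to 10.0 CPM (0.96 ± 0.20), but 55.5% of its exon length overlaps other genes, chiefly a read-through transcript with TNFSF12.

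TNFAIP3, which encodes A20, an intracellular brake on NF-kB, had 26.2, 27.5 and 26.7 CPM in control and 68.3, 64.5 and 60.3 in GABA libraries. The control libraries lay close together, and every GABA library was far above them. It rose by 1.26 ± 0.10 (edgeR adjusted p = 2.7e-06), the smallest p of all members. TNFAIP1, an adaptor of a ubiquitin ligase, had -0.33 ± 0.07. From a list of 51 genes of cytokine and TNF signal transduction, 15 were tested. Of these 5 rose, 9 fell (60%, against 51.2% of all tested genes) and STAT6 did not pass. The smallest p-values belonged to STAT5B (-0.49 ± 0.07), a cytokine-activated transcription factor, NFKB2 (-0.50 ± 0.08), an NF-kB subunit, and TRAF5 (-0.67 ± 0.13), a TNF receptor adaptor.

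The 10 listed interleukin receptors all fell. IL31RA, the IL-31 receptor chain, had 133, 134 and 127 CPM in control and 70.9, 68.9 and 63.3 in GABA libraries (-0.95 ± 0.08, edgeR adjusted p = 4.4e-06). IL20RB, a shared chain of the receptors for IL-19, IL-20 and IL-24, had 43.5, 50.6 and 46.9 in control and 20.2, 19.9 and 19.4 in GABA libraries (-1.25 ± 0.11, edgeR adjusted p = 6.2e-06). IL13RA1, a chain of the IL-4 and IL-13 receptor, had 196, 185 and 210 in control and 127, 128 and 122 in GABA libraries (-0.64 ± 0.07, edgeR adjusted p = 3.3e-05). The groups of all 10 receptors were separate, as they were in 92.5% of all tested genes. IL6R, the IL-6 binding chain, had -0.87 ± 0.12, IL3RA -0.87 ± 0.16 and IL1RAP, the IL-1 co-receptor, -0.50 ± 0.10. IL17RD (-0.36), IL4R (-0.33), IL17RA (-0.27) and IL6ST (-0.21) had smaller values, and each lost its call in at least 1 alternative. For IL17RD this was without GABA replicate 2 (adjusted p = 0.0588), and for IL4R (adjusted p = 0.0600) and IL17RA (adjusted p = 0.0624) without GABA replicate 1. IL6ST, the shared signal chain gp130, had 1017, 981 and 1235 CPM in control and 919, 940 and 929 in GABA libraries. It did not pass with DESeq2 (adjusted p = 0.0630), with DESeq2 size factors (adjusted p = 0.0640) or without each of the 3 GABA libraries in turn (adjusted p 0.0582 to 0.0754). Control replicate 3 was the highest library, and without it the value was -0.11 (adjusted p = 0.0306).

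Of the 9 interleukins 5 rose and 4 fell. IL11, a gp130 cytokine, had 12, 12.9 and 11.1 CPM in control and 23.8, 26.1 and 17.0 in GABA libraries (0.89 ± 0.17, edgeR adjusted p = 0.0011). IL24, of the IL-10 family, had 13.4, 17.0 and 16.4 in control and 26.5, 30 and 21.4 in GABA libraries (0.73 ± 0.16, edgeR adjusted p = 0.0018). The ligand IL24 and the chain IL20RB of its receptor thus had opposite signs. IL12A and IL23A, subunits of IL-12 family cytokines, rose by 0.85 ± 0.19 and 1.17 ± 0.29, IL23A from 2.28 to 5.15 CPM. IL1A had 238, 248 and 345 in control and 336, 343 and 324 in GABA libraries. Control replicate 3 exceeded every GABA library, and the value of 0.27 ± 0.12 lost its call in 5 of 6 fits with a library left out (adjusted p 0.0692 to 0.181). The exception was the fit without control replicate 3, with 0.46 (adjusted p = 1.21e-08). The value without control replicate 1 was 0.17.

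IL6, a cytokine of the acute phase response, had 67.4, 82.9 and 89.8 CPM in control and 70.3, 72.6 and 53.7 in GABA libraries. The groups overlapped, and its -0.29 ± 0.13 (edgeR adjusted p = 0.0477) was lost in 7 of 11 alternatives, with -0.16 without GABA replicate 3 (adjusted p = 0.241). Of its exon length 20.7% lies in another gene. IL7 (-0.85 ± 0.24), IL15 (-1.05 ± 0.30) and IL34 (-1.32 ± 0.39) were lower, with group means under 10 CPM. IL34, a ligand of the macrophage receptor CSF1R, had 3.76, 4.14 and 3.94 CPM in control and 1.54, 0.517 and 2.60 in GABA libraries.

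The chemokines CXCL1 and CXCL3, which attract neutrophils, moved in opposite directions. Their promoter windows, printed above, were 82.5% identical. CXCL1 had 167, 155 and 170 CPM in control and 135, 118 and 120 in GABA libraries (-0.40 ± 0.08, edgeR adjusted p = 0.0011). CXCL3 had 9.47, 11.1 and 6.23 in control and 11.7, 16.5 and 14.8 in GABA libraries (0.68 ± 0.22, edgeR adjusted p = 0.0119). The groups of CXCL3 were close, and its call was lost without GABA replicate 2 (0.57, adjusted p = 0.0516). CXCL1 shares 4.81% and CXCL3 6.01% of 50-base words with other genes, mainly each other and CXCL2. Of the 4 genes whose promoters are printed above, TNFAIP3 and CXCL3 were higher, and CXCL1 and IL6 lower, with GABA. The groups of IL6 overlapped, and its call was lost in most alternatives.

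STC1, stanniocalcin 1, a secreted glycoprotein known for calcium and phosphate handling, had 31.1, 30.2 and 35.6 CPM in control and 74.6, 76.0 and 65.7 in GABA libraries. The lowest GABA library was well above the highest control library. STC1 rose by 1.16 ± 0.11 (edgeR adjusted p = 8.2e-06). The 5 tested genes whose log2 CPM followed it most closely over the 6 libraries were CDK20, DKK1, RNF182, GPSM2 and CKAP2L, with Pearson's r of 0.9971 to 0.9977. The libraries share the 2-group contrast by which the genes are listed, and 10.2% of tested genes had r of 0.95 or more. HBEGF, a membrane-anchored EGF receptor ligand, had 99.5, 111 and 116 in control and 148, 154 and 132 in GABA libraries (0.41 ± 0.09, edgeR adjusted p = 0.0015). It was the 1 member listed from the EGF family.

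No listed IGF name is an IGF ligand or receptor. IGFBP4, which binds and restrains IGFs, had 169, 165 and 130 CPM in control and 192, 206 and 203 in GABA libraries, a rise of 0.38 ± 0.09 (edgeR adjusted p = 0.0038). Control replicate 3 was the lowest. IGF2BP3, an oncofetal RNA-binding protein, had 154, 157 and 174 in control and 113, 113 and 104 in GABA libraries (-0.55 ± 0.08, edgeR adjusted p = 1.4e-04). IGFN1, a muscle protein named for its domains, had 10.1, 16.4 and 8.27 in control and 7.32, 5.43 and 5.55 in GABA libraries (-0.92 ± 0.26, edgeR adjusted p = 0.0070). Without control replicate 2, the highest, its value was -0.59 (adjusted p = 0.0258). IGFALS, the acid-labile subunit of the circulating IGF complex, was under the filter with 1, 7 and 4 counts in control and 14, 19 and 8 in GABA libraries.

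From a list of 41 adaptors and feedback inhibitors of receptor tyrosine kinases, 18 were tested. Of these 13 were lower (72.2%, against 51.2% of all tested genes) and 5 higher. SHC1, an adaptor that links receptors to RAS, fell from 1559 to 1038 CPM (-0.59 ± 0.09). SPRY2, a feedback inhibitor, rose from 111 to 167 CPM (0.59 ± 0.08), and IRS1, the insulin receptor substrate, from 308 to 472 (0.61 ± 0.10).

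Of the 79 tested members 54 kept their call in all 11 alternatives and 25 lost it in at least 1, with no change of sign. The genes are listed by this same contrast, and every alternative refits these libraries scaled to listed genes. Kept signs and calls therefore say little, and the same count was not made over all tested genes. Among receptors, 18 of the 29 that fell kept their call throughout, and EPHA2, the 1 that rose, did not. The 4 members under the filter were EFNB3, FGFR3, IGFALS and SEMA3G.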

How the data were processed

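The authors deposited 1 table of integer read counts per Ensembl gene for each of 6 libraries (3 control, 3 GABA). Per the submitters' processing notes, CASAVA 1.8, Bowtie 0.12.2 and hg38 were used. The counting program, annotation and strand setting are not given in the sources used here, so counts of overlapping genes are uncertain.

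Symbols came from a gene name table (4904 genes) and GENCODE release 29 (283), which also gave gene types and exon lengths. Genes were tested with edgeR 4.0.16 in R 4.3.3: filterByExpr (minimum count 10, minimum total 15), TMM, a robust quasi-likelihood fit and its F test, with Benjamini-Hochberg adjustment over 4981 genes at 0.05. Log2 fold changes compare GABA with control, and their SE comes from the fit. The fit was tested on simulated data in which most genes did not change. The listed genes differ from that setting, so the test does not check the fit for them.

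Values per library are given for the 3 members with the smallest p in each family and for 12 genes set by name, where listed, and for others chosen after their values were seen. For each pathway list the 3 genes with the smallest p are named. The members and lists were chosen with earlier results of these data known. Roles were assigned from textbook knowledge after the values had been seen. Alternatives were DESeq2 1.42.0, DESeq2 size factors, library totals, no filter, the replicate block and each library left out. Words of 50 bases were compared with GENCODE transcripts. Python 3.11.15, pandas 2.3.3 and matplotlib 3.10.9 were used.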

Additional observations from a re-analysis of the deposited data

How the results depend on the processing

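No member changed sign under the 11 alternatives: 781 of 869 member and setting values kept their side of the threshold, and 88 lost it. Since the listing follows this contrast in these libraries, kept signs and calls say little. Members higher numbered 22 to 27 and members lower 40 to 50 with 1 library left out, and 27 and 42 with DESeq2. All genes called ranged from 4025 to 4735 with 1 library left out, and were 4324 with DESeq2, against 4918 in the reported fit. Fits with a library left out hold fewer samples. Receptors called higher ranged from 0 to 1 with 1 library left out, because EPHA2 lost its call without GABA replicate 1, GABA replicate 2 or control replicate 1. Most calls were lost without GABA replicate 2 (18) and GABA replicate 1 (15), and the fewest without control replicate 3 (3). DESeq2 lost 10, DESeq2 size factors 6, library totals 5 and no filter 0. The cause was not tested. The replicate block lost 2 calls, PLXNA3 (adjusted p = 0.0689) and SEMA4C (adjusted p = 0.0545), and called 27 members higher, 50 lower and 4823 genes in all. Same-numbered libraries did not deviate together (correlations 0.0277, -0.111 and -0.0451), so no shared effect of the replicate number was seen. With 3 libraries per group this cannot show whether the cultures were paired. With DESeq2 54.8% of called genes were higher, against 48.2%. Levels near 3 counts per library limit BMPR1B and IL34.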
